A study of Homo sapiens with 54 samples.

Results

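The mitochondrially encoded genes are the 37 genes that the deposited tables place on chromosome MT, out of 60676 genes listed, and they were taken by that chromosome name alone. They comprise 13 mRNA genes, 2 rRNA genes and 22 tRNA genes. RNA-seq was read in 53 libraries of 18 conditions from hMSN-like cells, neurons resembling striatal medium spiny neurons that were differentiated with activin A from H9, a single human embryonic stem cell line. In the 1 mM and the 1 uM dopamine experiments, each with its own PBS libraries, cells received dopamine once and were extracted 1 h (Acute 1 h) or 24 h (Acute 24 h) later, or received it on 5 days and were extracted 1 h (Chronic 1 h) or 24 h (Chronic 24 h) after the last incubation. In the time course, 1 mM dopamine was given on 2, 3, 4 or 5 days (2 Day to 5 Day) and the AA vehicle libraries received ascorbic acid. According to the methods of the study dopamine was dissolved in ascorbic acid, and every time course library was extracted on the same day of culture. The PBS libraries of the 1 mM and 1 uM experiments are not described as having received ascorbic acid. In comparisons with PBS, dopamine and its ascorbic acid therefore cannot be told apart. In the 1 mM and 1 uM experiments acute dosing was done on an earlier day of culture than chronic dosing, and the day of the PBS libraries is not given in the sources used here, so chronic against acute dosing and the age of the culture cannot be told apart there. In the agonist experiment, the D1-like receptor agonist SKF82958 or the D2-like receptor agonist quinpirole was given at 50 uM and compared with Water. Each condition held 3 libraries, except that only replicates 2 and 3 of 5 Day were analysed here.

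Mitochondrial DNA is a small circle that is copied into RNA from both strands as long precursors, and the tRNAs that lie between the other genes are cut out to release the mRNAs and rRNAs. The mRNAs encode core subunits of respiratory complexes I, III and IV and of the ATP synthase, while every subunit of complex II and most subunits of the other complexes come from nuclear genes. The 12S and 16S rRNAs, from MT-RNR1 and MT-RNR2, form the core of the mitochondrial ribosome that translates these mRNAs. In neurons the respiratory chain supplies much of the ATP spent on ion gradients and synaptic transmission.

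The tRNA genes that flank the rRNA genes, MT-TF, MT-TV and MT-TL1, are printed because they mark where the precursor is cut around the rRNAs. MT-TC and MT-TY do not adjoin the rRNA genes and are printed because they had the most reads of the other tRNA genes. Coordinates are those of hg38, whose chromosome M has 16569 bases, and all 37 genes had the same start, end and strand in the deposited tables and in the GENCODE release 44 annotation. Sequences run 5′ to 3′ on the strand of the gene. MT-TF lies at chrM:577-647, MT-TV at chrM:1602-1670 and MT-TL1 at chrM:3230-3304, all on the plus strand, and MT-TC at chrM:5761-5826 and MT-TY at chrM:5826-5891 on the minus strand. Capitals mark the anticodon, except in MT-TL1, where they mark the run TGGCAGAGCCCGG at which the termination factor MTERF1 is known to bind. That run of 13 bases was found 1 time on the plus strand of chromosome M and 0 times on the minus strand.
MT-TF: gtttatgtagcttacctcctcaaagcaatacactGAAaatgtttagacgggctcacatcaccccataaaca
MT-TV: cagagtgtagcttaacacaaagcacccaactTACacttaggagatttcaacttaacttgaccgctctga
MT-TL1: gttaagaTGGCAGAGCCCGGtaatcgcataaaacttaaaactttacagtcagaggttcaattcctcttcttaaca
MT-TC: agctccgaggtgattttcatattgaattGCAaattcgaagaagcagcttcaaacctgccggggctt
MT-TY: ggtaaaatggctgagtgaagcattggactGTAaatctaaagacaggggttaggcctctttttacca

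MT-RNR1 spans chrM:648-1601, 954 bases between MT-TF and MT-TV, and MT-RNR2 spans chrM:1671-3229, 1559 bases between MT-TV and MT-TL1. The mRNA genes run from 207 to 1812 bases, and 9 of the 37 genes, MT-ND6 and 8 tRNA genes, lie on the minus strand. In 6 of the 13 mRNA genes the genome holds no full stop codon. Reading frames overlap at 2 places among mRNA genes by more than 1 base, and these are shown because reads that fall there belong to both members. The frames of MT-ATP8 and MT-ATP6 share the 46 bases in capitals in chrM:8517-8582, and those of MT-ND4L and MT-ND4 share the 7 bases in capitals in chrM:10750-10776, both on the plus strand.
MT-ATP8/MT-ATP6: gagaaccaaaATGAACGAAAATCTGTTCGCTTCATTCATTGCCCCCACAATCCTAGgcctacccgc
MT-ND4L/MT-ND4: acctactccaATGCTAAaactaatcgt

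The libraries held 4121674 to 33715972 gene reads, with a median of 13512153. Median TPM of the 6 neuronal markers was 1175 for STMN2, 823 for TUBB3, 460 for MAP2, 162 for SYT1, 121 for SNAP25 and 11.9 for RBFOX3. Medians of the 12 striatal markers ran from 1.63 (DRD1) to 44.6 (BCL11B), with PPP1R1B at 14.4 (2.66 to 44.7 over the libraries). Those of the 6 progenitor markers ran from 76.7 (MKI67) to 1298 (VIM), with SOX2 at 505. All these values leave out quinpirole replicate 1. In bulk RNA, fewer cells of a type and less RNA per cell cannot be told apart. A pair of libraries stood apart. In quinpirole replicate 1, 96.7% of the reads of nuclear genes fell in introns and the mitochondrial genes held 0.109% of gene reads, and in 1 mM Acute 24 h replicate 1 the mitochondrial share was 1.35% against 3.09% and 3.05% in the other replicates. Results that rest on either library are given with and without it.

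The share of gene reads on mitochondrial genes differed between experiments more than between most conditions within one. It ran from 1.35% to 3.52% in the 1 mM libraries (median 3.14%), from 4.36% to 12.2% at 1 uM (median 6.26%), from 6.43% to 12.3% in the time course (median 8.14%) and from 0.109% to 12.0% in the agonist libraries (median 7.94%). Since each experiment was a separate set of libraries with its own vehicle, the experiment and the batch cannot be told apart, and levels were compared only within an experiment. At these depths the 95% Wilson intervals of the shares were at most 0.0210 percentage points to either side, and they cover counting error only.

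In the 1 mM experiment the PBS libraries had 2.94%, 2.91% and 3.19% of gene reads on mitochondrial genes. Acute 1 h libraries had 3.29%, 3.27% and 3.38%, Chronic 1 h libraries 3.27%, 3.14% and 3.28%, and Chronic 24 h libraries 3.14%, 3.04% and 3.52%. The Acute 1 h values all lay above the PBS values, while those of Chronic 1 h and Chronic 24 h overlapped them. The direction turned with exon reads, with 2.72% to 2.95% of them on mitochondrial genes in PBS and 2.51% to 2.61% in Acute 1 h. Exon reads leave out the rRNA genes, the intron reads of nuclear genes and the reads listed as intron reads on the mRNA genes. In the 1 mM libraries the median share of a gene's reads listed so was 31.7% for MT-ND4L and 24.6% for MT-ATP8. It was 15.3% for MT-ND6, 13.4% for MT-ATP6 and at most 3.99% (MT-ND4) for the other mRNAs. Of all gene reads, the mRNAs alone held 2.23% to 2.48% in PBS and 2.27% to 2.39% in Acute 1 h, which overlapped. In the 1 uM experiment the PBS libraries spread further than any treated group, at 4.36%, 12.0% and 5.49%. The treated libraries there overlapped them, at 7.14%, 11.0% and 5.23% for Acute 1 h, 10.1%, 6.26% and 5.64% for Acute 24 h, 6.81%, 12.2% and 5.56% for Chronic 1 h, and 5.06%, 5.22% and 7.34% for Chronic 24 h.

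AA vehicle libraries had 7.02%, 7.44% and 8.26%. The 2 Day libraries, at 8.77%, 9.51% and 8.85%, lay above all of them, while the 3 Day (8.04%, 8.87% and 8.25%) and 4 Day (7.38%, 7.29% and 7.84%) libraries overlapped them. The pair of 5 Day libraries fell on both sides of AA vehicle, with 12.3% in replicate 2 and 6.43% in replicate 3. Water libraries had 8.80%, 8.70% and 8.37%, and SKF82958 libraries were lower than all of them at 7.38%, 7.94% and 7.64%. With exon reads the 2 Day libraries also lay above AA vehicle and the SKF82958 libraries below Water. Quinpirole libraries had 0.109%, 12.0% and 6.78% and took in both the lowest share of all libraries and one of the highest.

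**Figure D1:**
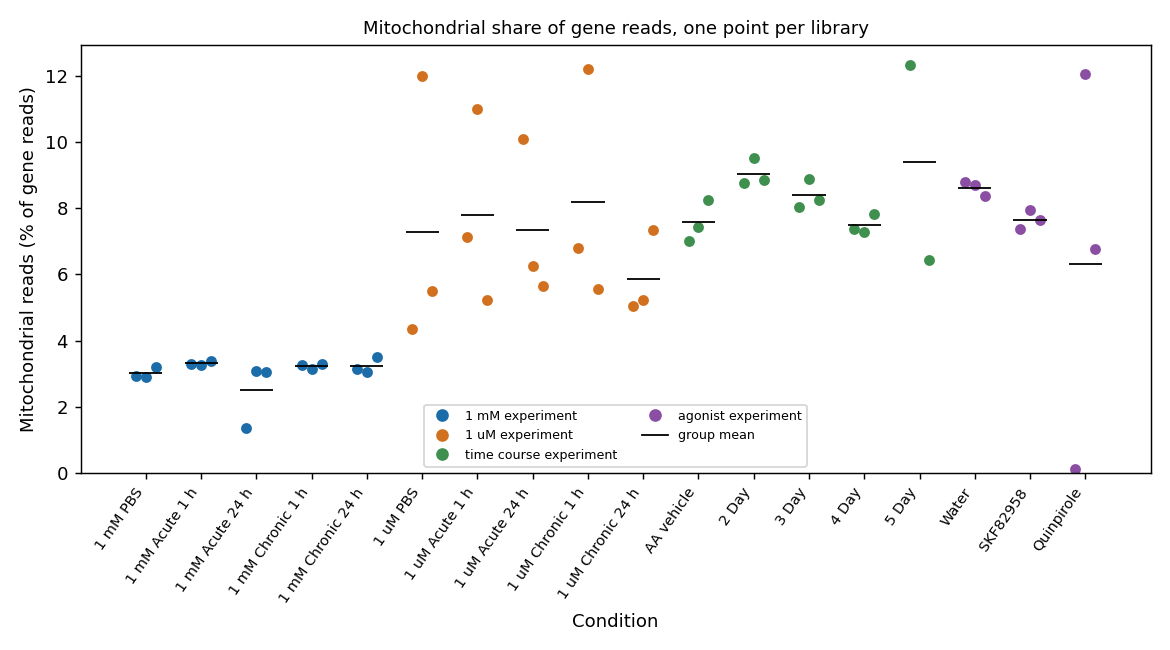
Share of gene reads on the 37 mitochondrial genes (y axis, percent of all gene reads in a library) in each condition (x axis), with 1 point per library, coloured by experiment, and a line at the group mean. The 1 mM libraries lie between 1.35% and 3.52%, and the libraries of quinpirole and of 1 uM PBS spread the most within a group.

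Per length, the transcripts of the vehicle libraries differed severalfold. Levels here are CPM (a gene's reads per 1000000 gene reads of its library), divided by the gene's length in kilobases, because the deposited tables give the rRNA and tRNA genes an exon length of 0 and a TPM of 0. MT-CO1, the catalytic subunit of complex IV, was the highest in 1 mM PBS (5273 ± 240, SD, n = 3), 1 uM PBS (10028 ± 4055) and Water (10805 ± 156). In AA vehicle MT-CO3, another complex IV subunit, was at 10011 ± 905 and MT-CO1 at 9851 ± 549, a difference smaller than either spread. MT-RNR2 was the second or the third in all 4 vehicles, at 4080 ± 104, 7928 ± 3541, 8697 ± 541 and 8861 ± 552 in the same order of experiments.

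The lowest of the 15 mRNA and rRNA genes in all 4 vehicles was MT-RNR1, at 638 ± 27.9, 643 ± 56.1, 934 ± 55.8 and 1362 ± 115. Both rRNAs come from the same stretch of the precursor and lie side by side. How RNA was selected before sequencing is not given in the sources used here. These levels are therefore of reads in the libraries and need not be levels in the cells. The lowest mRNA encoded a complex I subunit in each vehicle, MT-ND5 in 1 mM PBS (753 ± 56.2) and MT-ND3 in the other vehicles, and MT-ND3 was at 975 ± 76.0 in 1 mM PBS. MT-ND6, the only mRNA of the minus strand, was at 949 ± 69.9 there, which differed from MT-ND3 by less than their spread.

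**Figure D2:**
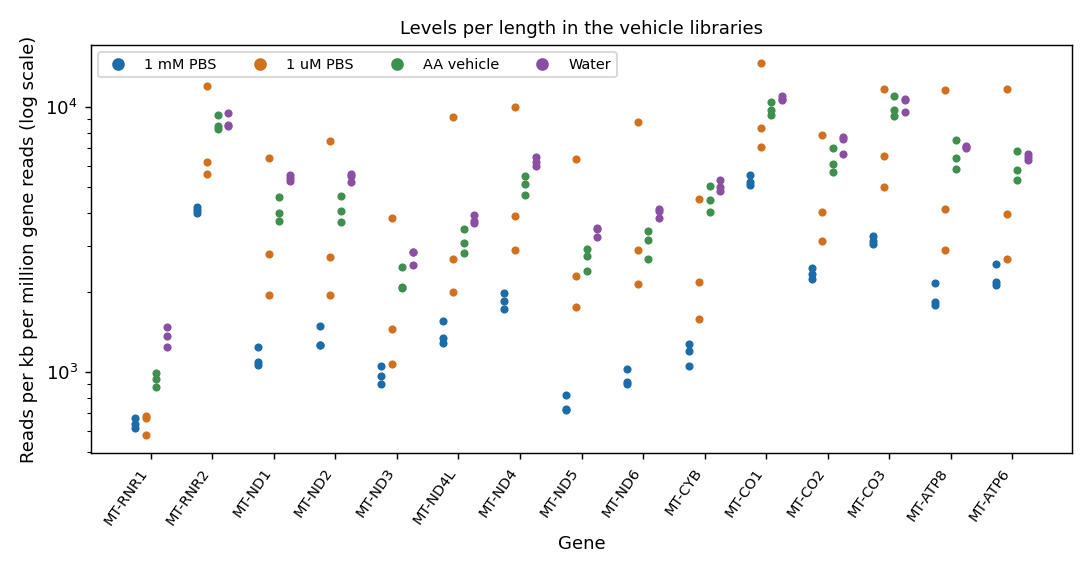
Level of the 13 mRNAs and 2 rRNAs per gene length (y axis, log scale, CPM per kilobase) in the 4 vehicle groups, with 1 point per library. Genes on the x axis are grouped as rRNAs and then by complex. MT-CO1 and MT-CO3 are at or near the top and MT-RNR1 is the lowest in each vehicle.

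Replicates of 1 uM PBS differed most in the mRNAs and least in MT-RNR1. The highest replicate exceeded the lowest 4.60-fold for MT-ND4L, 2.07-fold for MT-CO1, 2.15-fold for MT-RNR2 and 1.18-fold for MT-RNR1, and the median over the 13 mRNAs was 3.57-fold. In 1 mM Acute 24 h MT-ND2 spread 4.91-fold, MT-CO1 2.12-fold, MT-RNR2 1.48-fold and MT-RNR1 1.27-fold, and in 5 Day MT-ATP6 spread 2.75-fold, MT-CO1 1.51-fold, MT-RNR2 nearly as much and MT-RNR1 1.21-fold. MT-RNR1 spread less than the median mRNA in 13 of 18 conditions, and MT-CO1 was the least spread mRNA in 7 of 18.

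Almost no reads were counted on the tRNA genes. Over all libraries the 22 tRNA genes held 246 reads, 222 of them in the 1 mM libraries, 6 genes had none, and no tRNA gene had more than 8 reads in a library. The most reads were on MT-TY (73) and MT-TC (37), whose genes share 1 base on the minus strand, MT-TL1 (38), MT-TV (31) and MT-TF (21), which adjoin the rRNA genes. All reads of MT-TL1 and MT-TF were in 1 mM libraries. In 22 libraries there was no tRNA read, among them the library with the most gene reads (1 uM Chronic 24 h replicate 2), and a count of 0 allows up to 3 reads. The tRNA genes are 59 to 75 bases long, none passed the filter on low counts, and no comparison of them was made. Since the selection of RNA is not given, few tRNA reads need not mean few tRNAs in the cells.

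The question of the dosing comparisons was how transcription in the cells differed after acute and repeated dopamine. At 1 mM, both rRNAs were higher 1 h after a single incubation. In CPM, MT-RNR1 was at 638, 604 and 585 in PBS and at 886, 868 and 872 in Acute 1 h. All 3 treated libraries lay above all PBS libraries, a 1.68-fold difference (0.75 on the log2 scale, SE 0.11) with an adjusted p of 0.000249 in edgeR's quasi-likelihood test. MT-RNR2 was at 6364, 6197 and 6523 in PBS and at 8176, 9092 and 9666 in Acute 1 h. Again the groups did not overlap, and the difference was 1.65-fold (0.72 on the log2 scale, SE 0.13, edgeR adjusted p = 0.000602). In this comparison 47.2% of all genes tested passed, with 18.5% of all genes tested passing as higher, so a call was common among all genes. Both rRNAs kept their call in all 15 alternatives run, with log2 fold changes of 0.52 to 0.81 for MT-RNR1 and 0.50 to 0.81 for MT-RNR2.

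None of the 13 mRNAs was called in that comparison by edgeR, 0 had an unadjusted p under 0.05 and DESeq2 also called 0. The CPM of 9 of the 13 mRNAs overlapped between Acute 1 h and PBS, while 2 lay above PBS in all libraries and 2 below. How many of all genes lay apart in this way was not counted, here or in the comparisons below. Such counts of mRNAs therefore only describe the libraries. The log2 fold changes, which are scaled by TMM and so need not follow CPM, were above 0 for 11 of 13, with a median of 0.24 against -0.08 over all genes.

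The spread of 1 mM Acute 24 h replicate 1, a library of another condition in the same model, decided these calls. Without it edgeR called 9 of the 13 mRNAs in Acute 1 h against PBS, all as higher, where 60.9% of all genes passed, and with only the 2 groups in the model it called 11, where 64.4% of all genes passed. Without that library the fold changes hardly moved and their standard errors fell, for MT-ND1 from 0.37 to 0.10.

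Among complex I mRNAs, MT-ND1 was at 1019, 1043 and 1183 CPM in PBS and at 1436, 1357 and 1402 in Acute 1 h. Every treated library was above every PBS library, and without the outlying library the log2 fold change was 0.60 (SE 0.10, edgeR adjusted p = 0.000129). MT-ND3 behaved alike, at 312, 335 and 365 in PBS and 389, 430 and 452 in Acute 1 h, with a log2 fold change of 0.55. MT-ND4 and MT-ND4L, which share a transcript, were the 2 mRNAs whose CPM were lower in every treated library. MT-ND4 was at 2552, 2385 and 2739 in PBS and at 2229, 1982 and 1955 in Acute 1 h, and MT-ND4L at 397, 382 and 462 against 359, 342 and 336. On the TMM scale their log2 fold changes were -0.09 and -0.03 without that library, and neither was called.

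The other complex I mRNAs had log2 fold changes of 0.36 (MT-ND5), 0.35 (MT-ND2) and 0.29 (MT-ND6) without the outlying library, all called. MT-CYB, the only mitochondrial mRNA of complex III, was at 0.25 and was not called. The complex IV mRNAs MT-CO2, MT-CO3 and MT-CO1 were at 0.28, 0.22 and 0.22, all called, although CPM of MT-CO1 overlapped between PBS (7820, 8030 and 8541) and Acute 1 h (8137, 7892 and 8157). Of the ATP synthase mRNAs, MT-ATP6 was called at 0.24 and MT-ATP8 was not, at 0.23.

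**Figure D3:**
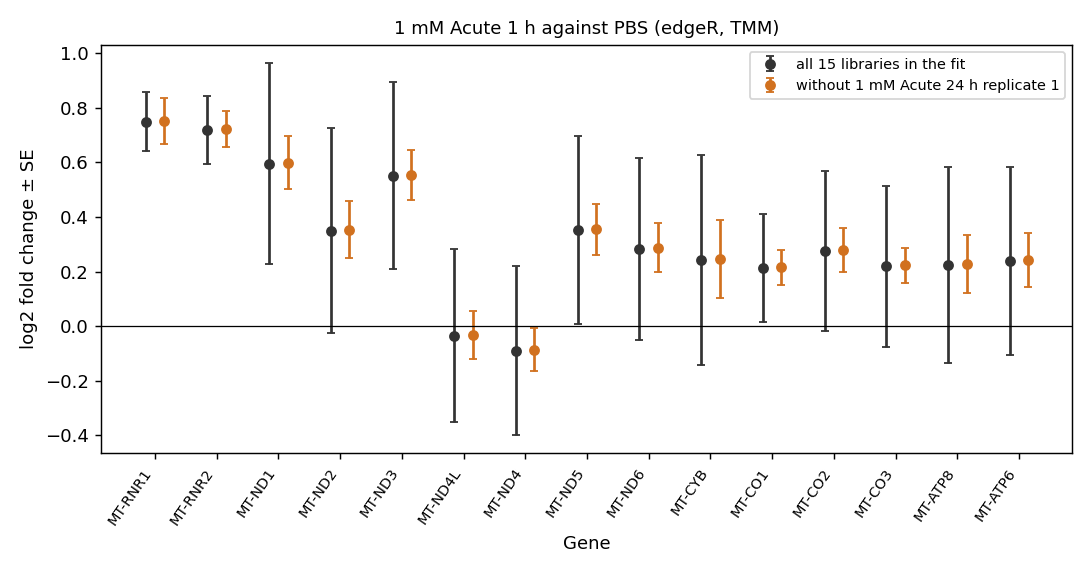
Log2 fold changes of the 13 mRNAs and 2 rRNAs in 1 mM Acute 1 h against PBS from edgeR, with bars of 1 standard error. The rRNAs are at 0.75 and 0.72, MT-ND1 and MT-ND3 lead the mRNAs, and MT-ND4 and MT-ND4L are at or below 0.

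How the libraries were scaled set the level of these values. With library totals in place of TMM, the median of all genes moved by -0.23 and the median of the mRNAs went from 0.24 to 0.02. The split of all genes called went from 4814 higher and 7457 lower to 2127 higher and 9682 lower. Relative to the median of all genes, MT-RNR1 was higher by 0.83, MT-RNR2 by 0.80 or 0.81 and the mRNA median by 0.33. These values held under TMM, DESeq2 size factors, library totals and TMM factors from nuclear genes. A change of scaling moves all genes by nearly the same amount, so this agreement was fixed in advance and is no test. With exon reads the mRNA median was -0.10 relative to all genes, and the rRNA genes have no exon reads. The share of nuclear gene reads that fell in introns moved with the groups, from 19.3% to 21.7% in PBS to 11.6% to 12.5% in Acute 1 h, and its part in the result was not tested. The marker lists had summed TPM values of 3137 to 3571 in PBS and 2858 to 3160 in Acute 1 h for neurons and 2803 to 3303 and 2953 to 3238 for progenitors, which overlapped. The other lists except that of mesenchymal cells were lower without overlap, from 166 to 184 in PBS to 142 to 153 in Acute 1 h for striatal neurons, from 34.2 to 62.0 to 25.1 to 33.6 for interneurons of the medial ganglionic eminence, from 115 to 151 to 106 to 111 for astrocytes and from 0.96 to 1.16 to 0.15 to 0.64 for pluripotent cells. The interneuron sum was nearly all SST, whose median TPM over the libraries without quinpirole replicate 1 was 18.5. NKX2-1 and LHX6 had medians of 0 and 0.10, so this sum follows SST and does not stand for the cell type. The part of these shifts in the result was not tested.

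Shares within the mitochondrial mRNA do not depend on scaling between libraries. MT-ND1 made up 4.54%, 4.68% and 4.78% of mitochondrial mRNA reads in PBS and 6.02%, 5.97% and 6.04% in Acute 1 h. MT-ND4 went the other way, from 11.4%, 10.7% and 11.1% to 9.34%, 8.72% and 8.42%. In Chronic 1 h, MT-ND1 was again high at 5.80%, 6.26% and 5.89%, whereas MT-ND4 was at 11.0%, 10.8% and 11.0%, within the PBS range. MT-ND2, also a complex I mRNA, was higher still in the chronic libraries, from 5.89%, 5.90% and 6.30% in PBS to 8.00%, 8.47% and 8.36% in Chronic 1 h and 8.57%, 7.39% and 8.34% in Chronic 24 h.

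The rRNA reads per 100 mitochondrial mRNA reads were 31.2, 30.5 and 28.7 in PBS and 38.0, 43.8 and 45.4 in Acute 1 h. All Acute 1 h values lay above PBS, and the Chronic 1 h values of 34.8, 34.5 and 34.4 lay between the groups. In Chronic 24 h the ratios of 28.8, 28.6 and 26.3 reached into the PBS range from below. Acute 24 h libraries had 37.6 and 34.6, and 80.8 in the replicate with the low mitochondrial share.

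**Figure D4:**
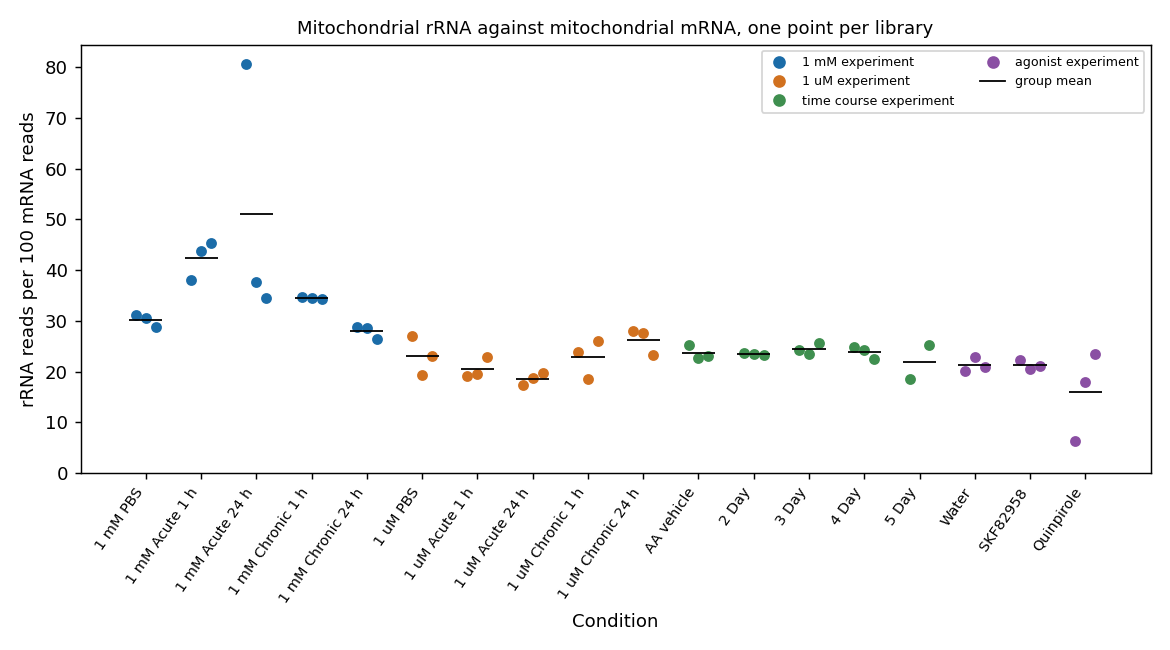
Reads on both rRNA genes per 100 reads on the 13 mRNAs (y axis) in each condition (x axis), with 1 point per library and a line at the group mean. In the 1 mM experiment Acute 1 h lies above PBS in every library, and the value of 80.8 is 1 mM Acute 24 h replicate 1.

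**Figure D5:**
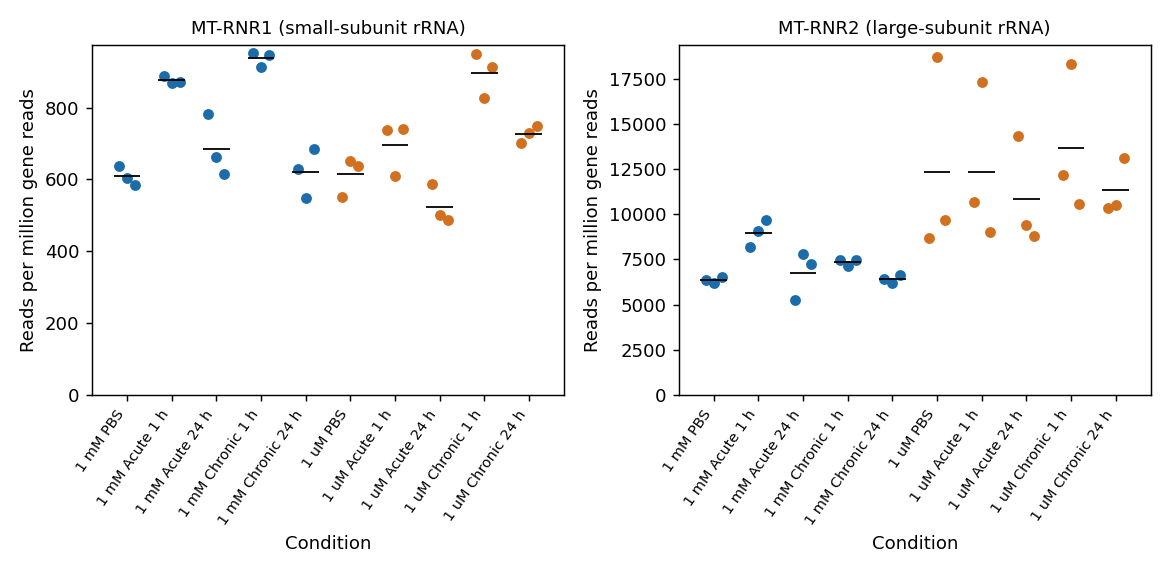
CPM of MT-RNR1 and MT-RNR2 (y axes, reads per 1000000 gene reads) in each condition of the 1 mM (blue) and 1 uM (orange) experiments (x axis), with 1 point per library and a line at the group mean. MT-RNR1 is above its PBS libraries in Chronic 1 h at both doses, and MT-RNR2 varies widely among 1 uM replicates.

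Nuclear genes for the respiratory complexes and the ATP synthase were also higher in Acute 1 h. Of 76 tested, 44 rose and 0 fell, where 47.2% of all genes passed and 18.5% as higher, with a median log2 fold change of 0.43 against -0.08 over all genes. The count depended on the scale. Under library totals 12 were higher and 1 lower (median 0.20), where 2127 of all 26006 genes were higher, and with exon reads 5 were higher and 0 lower (median 0.18), where 1431 of all 17804 genes were higher, so that the last count was near that of all genes. Of the complex I genes tested 18 of 37 rose, with NDUFS3 at a log2 fold change of 0.68 (SE 0.10) and NDUFA11 at 0.80 (SE 0.14), and both stayed called with library totals and with exon reads. Of complex III genes 6 of 9 rose, among them CYC1 (cytochrome c1) at 0.47 and UQCRQ at 0.76, and of complex IV genes 8 of 11, among them COX5B at 0.57 and COX4I1 at 0.42. In the ATP synthase 11 of 15 rose, among them ATP5PO at 0.58 and ATP5PD at 0.55, and in complex II, which has no mitochondrially encoded subunit, 1 of 4 (SDHD, 0.51). Without 1 mM Acute 24 h replicate 1, 67 of 76 were called, all higher, where 60.9% of all genes passed.

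Of 33 genes for copying, transcribing and processing mitochondrial DNA and RNA, 11 rose and 2 fell in Acute 1 h. Of all 26006 genes tested 4814 were higher and 7457 lower. A call in either direction was less common in the list than the 47.2% of all genes. A call as higher was more common than the 18.5% of all genes, and a call as lower was less common. HSD17B10, a subunit of the RNase P that cuts mitochondrial tRNAs at their 5′ ends, had a log2 fold change of 1.02 (SE 0.18), and GRSF1, a protein of mitochondrial RNA granules, was at 0.36. POLG2, the accessory subunit of the mitochondrial DNA polymerase, was at -0.63 and FASTKD1, a mitochondrial RNA-binding protein, at -0.31. Under library totals 2 of the list were higher and 6 lower, where 2127 of all genes were higher and 9682 lower. With exon reads 1 was higher and 3 lower, where 1431 of all genes were higher and 1414 lower. HSD17B10 was higher and POLG2 lower, both called, in each of these. Of 9 regulators of mitochondrial biogenesis 1 was called, also below the share of all genes, ESRRG (estrogen-related receptor gamma) at -1.51, which was -0.28 and not called with exon reads.

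At 1 mM Acute 24 h, MT-RNR1 was at 781, 663 and 614 CPM and overlapped PBS. edgeR called it at 0.31 on the log2 scale (SE 0.11, adjusted p = 0.0297), where 43.8% of all genes passed, and the call was lost in 4 of 14 alternatives, among them the fit without replicate 1 (0.22). MT-RNR2 was at 5269, 7784 and 7226 and was not called (0.23), but it was called at 0.39 without replicate 1 (edgeR adjusted p = 0.0013). Of the mRNAs 0 were called by edgeR, 0 had an unadjusted p under 0.05 and DESeq2 called 0. Their median of -0.23 turned to 0.17 without replicate 1, and then 2 were called, MT-ND1 at 0.46 and MT-ND3 at 0.36, where 50% of all genes passed. Replicate 1 was low in all 13 mRNAs, with MT-CO1 at 3646 CPM against 7430 and 7742, and was not low in MT-RNR1. Its summed neuronal markers were at 1634 TPM against 2904 and 2675, and its striatal markers at 223 against 163 and 171. Its share of nuclear reads in introns was the lowest of the group, at 12.0% against up to 15.5%. All Acute 24 h libraries were below PBS in that share (19.3% to 21.7% in PBS) and in neuronal markers (3137 to 3571 TPM in PBS). They were also below it in pluripotent markers (0.71 to 0.83 against 0.96 to 1.16), and the other marker lists overlapped PBS. The part of these differences in the result was not tested. The machinery list had 13 higher and 0 lower genes of 33 at this time, where 4759 of all 26006 genes were higher and 6629 lower. A call in either direction was not more common in the list than the 43.8% of all genes. Among the genes called were TWNK, the mitochondrial DNA helicase, at 1.14 (0.71 without replicate 1) and GRSF1 at 0.38. Of the 76 nuclear subunit genes 7 were higher and 1 lower, and 50 higher and 1 lower without replicate 1, where 50% of all genes passed. With exon reads 0 were higher and 3 lower, where 1492 of all genes were higher and 1263 lower.

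At 1 mM Chronic 1 h, MT-RNR1 was higher than PBS and MT-RNR2 was not called. MT-RNR1 was at 952, 913 and 947 CPM, above PBS and above Acute 1 h in every library. It was 1.49-fold higher than PBS (0.58 on the log2 scale, SE 0.11, edgeR adjusted p = 0.0225), where 0.992% of all genes passed. The call was lost in each of the 6 fits that left out a replicate of either group, with log2 fold changes of 0.56 to 0.64. MT-RNR2 was at 7483, 7141 and 7455, also above PBS in every library, with a log2 fold change of 0.16 (edgeR adjusted p = 0.723). Of the mRNAs 0 were called by edgeR and DESeq2 and 0 had an unadjusted p under 0.05. Without 1 mM Acute 24 h replicate 1, edgeR called 2, MT-ND1 at 0.36 and MT-ND2 at 0.46, where 9.3% of all genes passed. Of the 76 nuclear subunit genes ATP5F1C alone was called, at -0.38, and of the machinery list 0 of 33 by edgeR. Marker sums differed from PBS without overlap for astrocytes (115 to 151 TPM in PBS and 194 to 206 in Chronic 1 h), progenitors (2803 to 3303 and 2409 to 2578) and striatal neurons (166 to 184 and 147 to 163), and their part in the result was not tested.

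Set directly against Acute 1 h, MT-RNR2 was lower in Chronic 1 h at 1 mM. The difference was -0.56 on the log2 scale (SE 0.12, edgeR adjusted p = 0.00331), every Chronic 1 h library lay below every Acute 1 h library, and 40.1% of all genes passed. With library totals in place of TMM it was -0.29 and no longer called. MT-RNR1 was at -0.17 in the same test (edgeR adjusted p = 0.213), whereas its CPM were above Acute 1 h in all Chronic 1 h libraries, and so its direction turned with the scaling. Of the mRNAs 0 were called by edgeR and DESeq2 and 0 had an unadjusted p under 0.05. Without 1 mM Acute 24 h replicate 1, edgeR called 7 as lower, where 54.6% of all genes passed, with MT-ND6 at -0.46, MT-ND5 at -0.45, MT-CO1 at -0.39, MT-CO3 at -0.32, MT-ND3 at -0.29, MT-CO2 at -0.28 and MT-ND1 at -0.24. The direction of the mRNAs turned with the scaling. In CPM 6 of the 13 mRNAs lay above Acute 1 h in every Chronic 1 h library and 3 below, and with all libraries the median of the mRNAs was -0.23 under TMM, 0.04 with library totals and 0.08 with exon reads. The 7 called mRNAs include all those of complex IV and none of MT-ND4, MT-ND4L, MT-ND2, MT-CYB and the ATP synthase mRNAs. Of the 76 nuclear subunit genes 54 were lower and 0 higher (19 lower with library totals and 6 with exon reads), with ATP5PO at -0.77, COX5B at -0.59 and CYC1 at -0.52, and LRPPRC, which stabilizes mitochondrial mRNAs, was at -0.42. These nuclear genes were named for their small adjusted p within their lists and do not stand for the other members. The share of nuclear reads in introns was 11.6% to 12.5% in Acute 1 h and 20.3% to 20.6% in Chronic 1 h. Summed markers differed without overlap for astrocytes (106 to 111 and 194 to 206 TPM), progenitors (2953 to 3238 and 2409 to 2578), mesenchymal cells (78.4 to 80.1 and at least 86.6) and pluripotent cells (0.15 to 0.64 and 0.77 to 1.23), and the part of these shifts in the result was not tested.

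At 1 mM Chronic 24 h no mitochondrial transcript was called. MT-RNR1 was at 629, 548 and 685 and MT-RNR2 at 6388, 6199 and 6646, both within or around the PBS range, with log2 fold changes of 0.02 and 0.01. edgeR called 0.162% of all genes and 0 of the 13 mRNAs, with 0 at an unadjusted p under 0.05, and DESeq2 called 0. CPM of 6 mRNAs lay above PBS in all libraries, and without 1 mM Acute 24 h replicate 1 edgeR called MT-ND1 at 0.46 and MT-ND2 at 0.55, where 2.59% of all genes passed. MT-ND2 was at 2086, 1744 and 2322 CPM there, against 1320, 1314 and 1559 in PBS. Progenitor markers were lower than PBS without overlap, at 2199 to 2292 TPM, and astrocyte markers higher, at 152 to 201, and their part was not tested.

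At 1 uM, MT-RNR1 in Chronic 1 h was the single call against PBS, and the mRNAs overlapped between every treated group and PBS. MT-RNR1 was at 552, 650 and 639 CPM in PBS and at 950, 826 and 912 in Chronic 1 h, a 1.46-fold difference (0.55 on the log2 scale, SE 0.14, edgeR adjusted p = 0.0439), where 3.58% of all genes passed. The call was lost in 8 of 14 alternatives, with log2 fold changes of 0.47 to 0.64 over all of them. MT-RNR2 was at 12141, 18325 and 10551 in Chronic 1 h and at 8697, 18708 and 9674 in PBS, and these overlapped (0.13). The summed markers of all 7 lists and the intron shares overlapped between these groups. Against 1 uM Acute 1 h, MT-RNR1 was 1.40-fold higher in Chronic 1 h (0.49 on the log2 scale, SE 0.14, edgeR adjusted p = 0.112), above it in every library but not called, and MT-RNR2 was at 0.28 (edgeR adjusted p = 0.777). In 1 uM Chronic 24 h, MT-RNR1 was above PBS in every library, at 700, 729 and 748, but was not called (0.27), where 0% of all genes passed. In Acute 1 h and Acute 24 h neither rRNA was called, where 5.83% and 2.13% of all genes passed, with log2 fold changes of MT-RNR1 at 0.06 and -0.27.

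Of the mRNAs edgeR called 0 in each of the 4 comparisons at 1 uM and in Chronic 1 h against Acute 1 h, where 1.3% of all genes passed, DESeq2 called 0 and 0 had an unadjusted p under 0.05. Their median log2 fold changes were -0.01 in Acute 1 h, 0.08 in Acute 24 h, 0.20 in Chronic 1 h and -0.46 in Chronic 24 h. The last rested on PBS replicate 2, without which it was 0.30 with all 13 above 0. That replicate had MT-ND4 at 13842 CPM against 3976 and 5336, MT-ND5 at 11592 against 3197 and 4176, and MT-RNR1 at 650 against 552 and 639. Its rRNA reads per 100 mRNA reads were 19.2, against 26.9 and 23.2. Of the machinery list TRMT10C, another subunit of mitochondrial RNase P, was higher in Acute 1 h (1.13), Acute 24 h (0.68) and Chronic 1 h (1.48), while SSBP1, the mitochondrial single-stranded DNA-binding protein, was lower in Acute 1 h (-0.55) and Chronic 1 h (-0.79). In Acute 1 h, Acute 24 h and Chronic 1 h 5.83%, 2.13% and 3.58% of all genes passed. The 2 genes were named for their small adjusted p and do not stand for the list of 33. With exon reads TRMT10C stayed at 1.30 and 1.42 in Acute 1 h and Chronic 1 h, both called, and SSBP1 was at 0.36 and -0.0055, not called. Of the 76 nuclear subunit genes 3 were called in Acute 1 h, all lower, where 5.83% of all genes passed. With exon reads 1 was higher and 0 lower there. In Chronic 1 h 1 was called, ATP5F1C at -0.59 (0.07 with exon reads, not called), where 3.58% of all genes passed.

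The difference between doses was tested as a difference of the fold changes against each dose's own PBS. For Acute 1 h, the fold change at 1 mM exceeded that at 1 uM by 0.80 on the log2 scale for MT-RNR1 (SE 0.20, edgeR adjusted p = 0.00665) and by 1.00 for MT-RNR2 (SE 0.33, adjusted p = 0.0291), where 27.9% of all genes passed. Both calls held in the 3 alternatives run. For Chronic 1 h the difference was 0.04 for MT-RNR1 (SE 0.20, edgeR adjusted p = 0.975), where 0.0957% of all genes passed. Of the mRNAs 0 were called by edgeR in any of the 4 dose differences, with 0 at an unadjusted p under 0.05, and 2.2% and 0% of all genes passed for Acute 24 h and Chronic 24 h. DESeq2 was not run on the dose differences.

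In the time course, both rRNAs and 12 of the 13 mRNAs were above AA vehicle in CPM in every 2 Day library, and edgeR called none of them. Here 3.35% of all genes passed, and how many of all genes lay apart in CPM in this way was not counted. MT-CO2 was at 3878, 4170 and 4775 in AA vehicle and at 5115, 5905 and 5449 in 2 Day, and the difference was 0.40 on the log2 scale (SE 0.18, edgeR adjusted p = 0.235). MT-CO1 was at 14390, 15104 and 16077 against 17385, 18615 and 17262 (0.26). These 2 complex IV mRNAs were the 2 with an unadjusted p under 0.05, and DESeq2 called 0. All 13 log2 fold changes were above 0, from 0.23 to 0.40 with a median of 0.30, and 5 mRNAs were called with only the 2 groups in the model, where 10.6% of all genes passed. MT-RNR1 was at 897, 835 and 941 in AA vehicle and 950, 1090 and 972 in 2 Day (0.21, edgeR adjusted p = 0.222). Striatal neuron markers summed to 180 to 198 TPM in AA vehicle and 127 to 165 in 2 Day, without overlap, and their part was not tested.

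In 3 Day and 4 Day the mRNAs were closer to AA vehicle. In 3 Day the median of the mRNAs was 0.21, 3 of 13 did not overlap AA vehicle, and 4.95% of all genes passed. In 4 Day the median was 0.00, all 13 overlapped, and 2.13% of all genes passed. MT-RNR1 was at 1014, 997 and 996 in 4 Day, above AA vehicle in every library, with a log2 fold change of 0.20 (edgeR adjusted p = 0.284). For 3 Day and 4 Day edgeR and DESeq2 called 0 of the 13 mRNAs and 0 had an unadjusted p under 0.05. Striatal markers (180 to 198 TPM in AA vehicle) were lower in 3 Day (156 to 175), 4 Day (144 to 175) and 5 Day (161 to 173). In the same order, mesenchymal markers (128 to 175 in AA vehicle) were higher, at 200 to 361, 246 to 269 and 198 to 311. Astrocyte markers (154 to 161 in AA vehicle) were also higher, at 162 to 183, 173 to 194 and 176 to 185. All these lay apart from AA vehicle without overlap, and their part was not tested. In 5 Day MT-RNR1 was at 1020 and 846 (0.05 against AA vehicle), beside 0.58 in 1 mM Chronic 1 h against PBS, and since these differ in vehicle and experiment they were not tested against each other.

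The 5 Day result was set by which replicate was kept. With both, edgeR called 0 of the 13 mRNAs, 0 had an unadjusted p under 0.05, DESeq2 called 0, and 1.02% of all genes passed. With replicate 2 alone all 13 were called as higher, at 0.46 to 1.04, where 26.7% of all genes passed, and with replicate 3 alone all 13 log2 fold changes were below 0, with a median of -0.32, and 0 were called, where 0.4% of all genes passed. In those fits the lone library is assumed to vary like the other groups. MT-ATP6 was at 8188 in replicate 2 and 2982 in replicate 3, against 3615, 3933 and 4646 in AA vehicle. The regulator NRF1 was lower in 2 Day (-0.35), 3 Day (-0.35) and 4 Day (-0.30), and PPRC1 in 2 Day (-0.39) and 4 Day (-0.41). In 2 Day, 3 Day and 4 Day 3.35%, 4.95% and 2.13% of all genes passed. Both were named for the smallest adjusted p among the called genes of the 9 regulators, and they do not stand for that list.

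With SKF82958, all 13 mRNAs were below Water in every library, and edgeR called 0 of them, with 0 at an unadjusted p under 0.05 and 0 by DESeq2. Here 0% of all genes passed, and how many of all genes lay apart in CPM in this way was not counted. MT-CO2 was at 5291, 5198 and 4553 CPM in Water and at 4272, 4552 and 4360 in SKF82958, and MT-ND1 at 5281, 5175 and 5031 against 4256, 4604 and 4460. The log2 fold changes were -0.37 to -0.19 with a median of -0.25. MT-RNR1 overlapped at 1306, 1405 and 1186 against 1203, 1082 and 1071, and MT-RNR2 did not, at 13370, 14806 and 13265 against 12240, 12483 and 12260. Summed markers were higher in SKF82958 than in Water without overlap for astrocytes (177 to 186 TPM in Water and 206 to 215), mesenchymal cells (151 to 161 and 190 to 252) and progenitors (1468 to 1624 and 1638 to 1896), and their part was not tested. Quinpirole replicate 1 widened the spread of the whole agonist model. Without it 0.382% of all genes passed for SKF82958 and still 0 of the 13 mRNAs, and with only SKF82958 and Water in the model all 13 had an unadjusted p under 0.05 and 0 passed after adjustment, where 0.482% of all genes passed and the lowest adjusted p of an mRNA was 0.0736 in edgeR.

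Quinpirole against Water had no call among the mitochondrial genes, where 0% of all genes passed, and its direction turned with 1 library. MT-CO1 was at 20.6, 22366 and 13336 CPM against 16926, 16600 and 16456 in Water. MT-RNR1 was at 4.37, 1329 and 1194 against 1306, 1405 and 1186. The median log2 fold change of the mRNAs was -0.40 with all libraries and 0.18 without replicate 1, where 0.0968% of all genes passed, and 0 of 13 were called either way by edgeR, with 0 at an unadjusted p under 0.05 and 0 by DESeq2. In replicate 1 the most reads of the mRNAs were on MT-ND5 (229 CPM) and MT-ND6 (159), and the rRNA reads per 100 mRNA reads were 6.26, against 18.0 and 23.5 in replicates 2 and 3.

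Reads on nuclear copies of mitochondrial genes were few. Of 407 such copies by symbol 167 had any read, and in the 52 other libraries together they held 0.00918% to 0.227% of the number of mitochondrial reads, against 3.77% in quinpirole replicate 1. The most reads were on MTRNR2L12 on chromosome 3 (7165 reads in all), a copy of MT-RNR2, and on MTCYBP21 (4433) and MTND5P1 (2999) on chromosome 21. Of the reads counted on mitochondrial genes, 99.9988% to 100% were uniquely mapped in each library. Copies near-identical to the mitochondrial sequence can take reads from it in the counting, and these counts are therefore uncertain.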

How the data were processed

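The 37 genes with chromosome MT in the deposited tables were analysed in 53 libraries, and 1 of the 54 labelled samples (5 Day replicate 1) was not analysed here. The members and the gene lists were chosen with earlier results of these data known. The authors mapped the reads to hg38 in CLC Genomics Workbench and deposited, per library and gene, raw counts of total, uniquely mapped, exon and intron reads, which are not normalized. The authors also deposited TPM values, which rest on exon length and are therefore 0 for the mitochondrial rRNA and tRNA genes. Whether reads were counted by strand is not given in the sources used here. The study describes the replicates as independent, but neither it nor the labels say that they were separate cultures, so p-values measure the spread between these libraries.

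The counts of total reads per gene entered the quasi-likelihood test of edgeR 4.0.16 (TMM scaling, filterByExpr with a minimum count of 10 and a minimum total of 15) in R 4.3.3. All groups of an experiment shared one fit, p-values were adjusted by the Benjamini-Hochberg method over all genes tested, and called means an adjusted p under 0.05. Fold changes are therefore on the TMM scale. DESeq2 1.42.0 was an alternative. The code was tested on simulated data. Of 52 pairs of replicates compared by chi-square none held identical counts, and the lowest statistic per degree of freedom was 2.89. All 15 mRNA and rRNA genes could be named. Of the tRNA genes the 5 with the most reads were named, and of each nuclear list up to 2 called genes per direction with the smallest adjusted p. Nuclear copies were chosen by symbol, and the 3 with the most reads were named. Alternatives were other scalings, read classes, filters, sets of groups, a replicate block and each replicate left out.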

Additional observations from a re-analysis of the deposited data

Results flagged for a closer look

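The difference between the 2 doses in Acute 1 h against PBS passed the test of the difference itself for both rRNAs, at 0.80 on the log2 scale for MT-RNR1 and 1.00 for MT-RNR2 (edgeR adjusted p = 0.00665 and 0.0291). The 1 mM and 1 uM libraries were separate experiments with separate PBS libraries, so the dose and the experiment cannot be told apart, and the cause was not tested.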

How the results depend on the processing

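Of 261 recomputed counts of called mRNAs 250 were within 1.5 times the reported count. Against reported counts of 0, the fit without 1 mM Acute 24 h replicate 1 called 9 in Acute 1 h, 2 in Chronic 1 h, 2 in Chronic 24 h and 7 in Chronic 1 h against Acute 1 h, and only the 2 groups compared gave 11, 3 and 9 in the first, second and last of these and 5 in 2 Day. With each replicate left out, the counts ran from 0 to 2 in 1 mM Acute 24 h and from 0 to 13 in 5 Day. Leaving out a library removes its spread from the shared fit, and no other cause was tested.

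The replicate block called 0 mRNAs in every comparison and ended 1 rRNA call, MT-RNR1 in 1 uM Chronic 1 h (0.54). Same-numbered libraries deviated together with a mean correlation of -0.0045 at 1 mM, 0.0787 at 1 uM, -0.0488 in the time course and -0.0882 in the agonist experiment, above 0.1 in 2 of 30, 11 of 30, 6 of 26 and 2 of 9 pairs, so the numbers were not taken as pairs.

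In 1 mM Acute 1 h against PBS some mRNAs that were not called changed sign. With exon reads MT-CO1 was at -0.11, MT-CO2 at -0.054, MT-ATP8 at -0.10, MT-ATP6 at -0.087, MT-CO3 at -0.11, MT-ND6 at -0.047 and MT-CYB at -0.088. With library totals MT-CO1 was at -0.013, MT-ATP8 at -0.0012 and MT-CO3 at -0.0059. MT-ND4L was at 0.0025 with no filter, and at -0.089 to 0.084 with each replicate left out.

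Mean mitochondrial shares moved by more than their SD with uniquely mapped reads to 3.24% (1 mM PBS), 3.55% (1 mM Acute 1 h), 3.48% (1 mM Chronic 1 h), 9.71% (2 Day), 9.13% (3 Day), 8.22% (4 Day), 8.25% (SKF82958) and 9.29% (Water), since that changes the total. Exon reads leave out the rRNA genes, the intron reads of nuclear genes and the reads listed as intron reads on the mRNA genes. With them the mean shares were 2.80%, 2.56%, 2.90%, 8.06%, 7.58%, 6.85%, 7.22% and 8.00% in the same order and 6.85% in AA vehicle, which puts 1 mM Acute 1 h below PBS. Of 302 recomputed fold changes of single genes 251 kept direction and side of the threshold. The tRNA genes had too few reads for any comparison, and levels were not compared between experiments.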
